A study of Mus musculus with 9 samples.

Results

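The Hox genes are a family of transcription factor genes that carry a homeodomain, the part of the protein that binds DNA. The members were all rows of the deposited expression table whose symbol is Hoxa, Hoxb, Hoxc or Hoxd followed by a number, which gave 39 of 23361 genes. They were measured in 9 RNA-seq libraries of cells sorted from mouse skin, 3 each in the Quiescent, Active and UVB groups. The study, by its title, is about how stem cells of the melanocyte lineage start melanoma after ultraviolet exposure. All 9 libraries share the genotype label TBPT, which the labels do not spell out, an age of 10 weeks after birth and the label of melanocyte stem cells as their source. One treatment text, chemical hair removal or UVB irradiation, is given for all of them, so which group was depilated is not stated. The labels name no untreated control group and do not say whether the libraries of a group came from separate animals, so p-values measure the spread between these libraries only, which may be technical.

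Hox genes lie in clusters, and their order along the chromosome follows the order in which they are active along the body, low numbers towards the head and high numbers towards the tail and the tips of the limbs. Genes with the same number in different clusters are paralogues, copies that descend from one ancestral cluster. In adult skin, dermal fibroblasts keep the Hox pattern of the body site they come from, whereas melanocytes arise from the neural crest, and Hoxc13 is known for its role in the hair shaft, where it acts on hair keratin genes. Hox proteins bind DNA together with homeodomain cofactors of the TALE class, such as Meis and Pbx proteins, and the state of the clusters is kept by Polycomb repressors and Trithorax activators. Retinoic acid is one of the signals that switch the clusters on in the embryo.

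Library totals ran from 21045071 to 35131778 fragments, of which 824 to 8471 fell on Hox genes. Levels are given as CPM, estimated counts scaled to 1e+06 per library total after scaling with TMM factors, and a comparison between genes uses FPKM, which also divides by transcript length. The label of the source was checked with marker genes. Sox10, a transcription factor of melanocytes and Schwann cells, stood at 3.99, 2.2 and 0.295 CPM in Quiescent, 551, 561 and 660.4 in Active and 528, 581 and 312 in UVB. Tyr, the key enzyme of melanin synthesis, stood at 1.45, 2.44 and 2.18 CPM in Quiescent, 677, 387 and 359 in Active and 28.5, 21.3 and 36.4 in UVB. Col1a1, the main collagen of fibroblasts, stood at 121071, 98371 and 133630 CPM in Quiescent, 635, 813 and 693 in Active and 7153, 4816 and 6991 in UVB. Sox10 and Tyr were thus near 0 in all 3 Quiescent libraries, against the label, and Col1a1 was high there. The 10 listed melanocyte markers together came to 87.3 to 229 CPM in Quiescent, so not every one of them was near 0. Below, Quiescent means the libraries labelled so. Every comparison with Quiescent rests on these 3 libraries. The difference between UVB and Active leaves them out, but all 9 libraries share 1 fit, so its p-values still draw on them.

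Summed over all 39 members, Hox transcripts were most abundant in the libraries labelled Quiescent, least abundant in Active and between the other groups in UVB. The summed level was 331, 302 and 315 CPM in Quiescent replicates 1, 2 and 3, 32.9, 34.0 and 33.7 in Active and 119.8, 69.3 and 159.6 in the UVB libraries. The groups did not overlap, and the Active libraries were nearly equal, whereas the UVB libraries were widely spread. The group means of 316 ± 14.8, 33.5 ± 0.569 and 116 ± 45.2 CPM (SD, n = 3 each) put Quiescent 9.43-fold above Active and 2.72-fold above UVB, and UVB 3.47-fold above Active. Scaled by library size alone, the log2 ratio to Quiescent was -2.49 in place of -3.24 for Active and -0.72 in place of -1.44 for UVB. In bulk RNA of this kind, fewer cells of a type and less RNA per cell cannot be told apart.

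**Figure D1:**
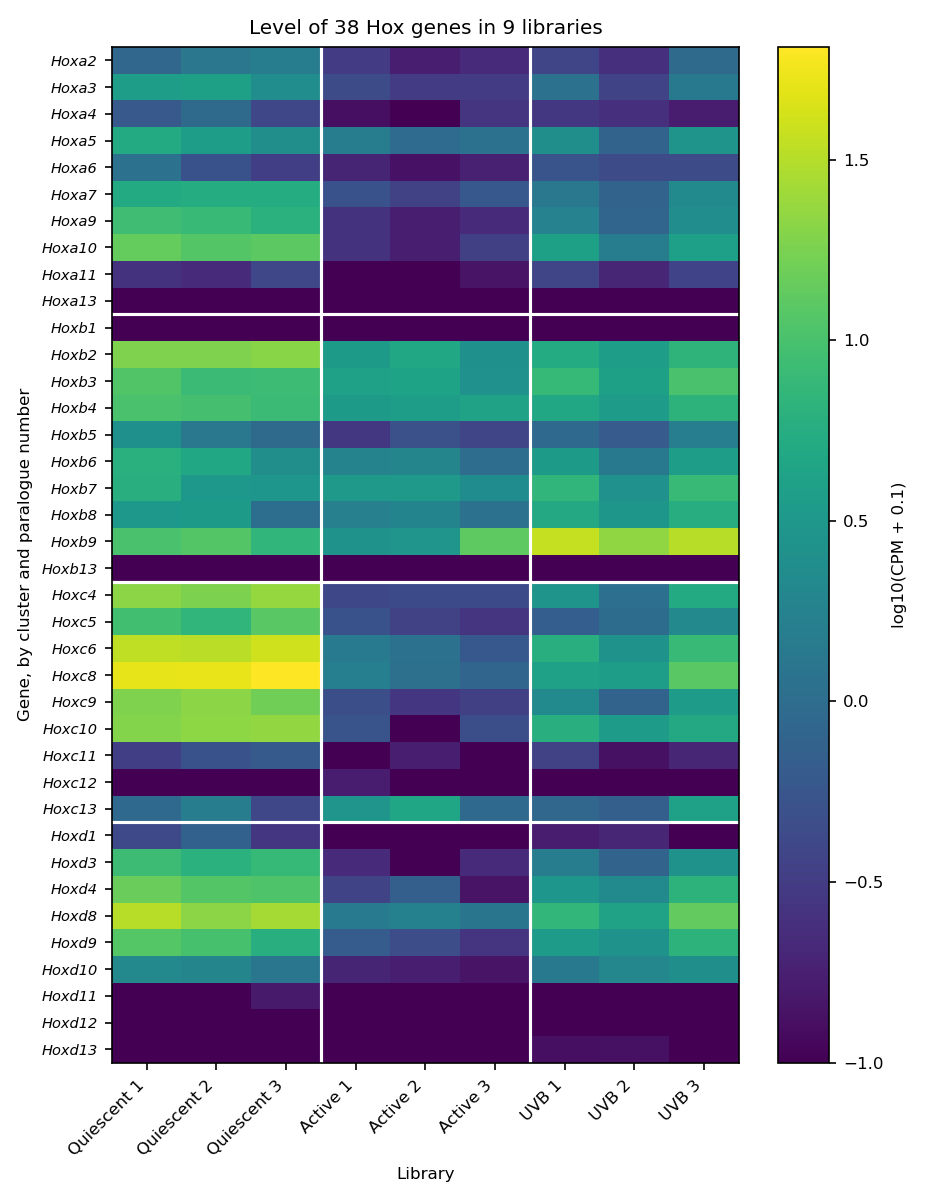
Level of each of 38 Hox genes (rows, by cluster and paralogue number) in each of the 9 libraries (columns), as log10 of CPM plus 0.1. Most genes of clusters C and D are bright in the 3 Quiescent libraries and darker in Active, whereas Hoxb2, Hoxb3, Hoxb4, Hoxb7 and Hoxb9 stay above 2 CPM in every library, and the highest numbered genes are dark throughout apart from Hoxc13.

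Most members could be detected. In Quiescent and in UVB, 33 of 39 members had at least 1 fragment in at least 1 library, and in Active 32 had. The filter on low counts left 28 members for testing: 8 of 11 in cluster A, 8 of 10 in cluster B, 7 of 9 in cluster C and 5 of 9 in cluster D. The 11 members left out were Hoxa4, Hoxa11, Hoxa13, Hoxb1, Hoxb13, Hoxc11, Hoxc12, Hoxd1, Hoxd11, Hoxd12 and Hoxd13. Of these, Hoxa13, Hoxb1, Hoxb13 and Hoxd12 had 0 fragments in all 9 libraries, which allows up to 3 fragments over a group, or 0.0506 CPM in Quiescent, 0.0356 in Active and 0.0331 in UVB, counting error only. Hoxc12 had 2 fragments in Active replicate 1, Hoxd11 1 fragment in Quiescent replicate 3 and Hoxd13 1 fragment each in UVB replicates 1 and 2. Hoxd1, the head-most gene of cluster D, had 8, 11 and 3 fragments in Quiescent, 2, 3 and 0 in UVB and 0 in all Active libraries, so it was at least 10.4-fold lower in Active than in Quiescent by the limit of 3 fragments over the group. Hoxa4, Hoxa11 and Hoxc11 held at most 14 fragments in any library. The 13 paralogue group, active at the tail and in the digits of the embryo, was testable only through Hoxc13.

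Between Active and Quiescent, 23 of the 28 tested members were lower in Active and 0 were higher (edgeR quasi-likelihood test, Benjamini-Hochberg adjusted p under 0.05), where 29.2% of all tested genes were lower and 29.1% were higher. Without adjustment, p was also under 0.05 for 0 members in the higher direction, and DESeq2 and limma called 0 there as well. Some members passed the filter on low counts only through Quiescent or UVB, such as Hoxa9 with 5, 2 and 3 fragments in Active and Hoxd3 with 4, 0 and 3. For those members a call higher in Active was hardly possible, so the count of 0 higher is in part set by the filter. Adjusted p-values below come from the same edgeR fit unless another tool is named. The median log2 fold change of the tested members was -3.71, beside 0.01 over all genes. In 24 of them the 3 Active libraries lay below all 3 Quiescent libraries, against 32.7% of all genes. Cluster D fell in 5 of 5 tested members (median -4.61), cluster C in 6 of 7 (median -5.67), cluster A in 7 of 8 (median -3.31) and cluster B in 5 of 8 (median -1.35). The difference between clusters was not tested. Scaled by library size alone, the median of all genes moved to 0.76, 19 members were lower and 1, Hoxc13, was higher. Under that scaling each of the 23 falls was smaller by over 1.5 times, and the changes given here are relative to a median of all genes near 0.

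To show the start of a gene that fell in each cluster, the sequence before the start of 1 such member is given from RefSeq, in the build GRCm38.p6. By the rule for choosing them, the called member of each cluster with the smallest adjusted p in Active against Quiescent, these are Hoxa10, Hoxb2, Hoxc6 and Hoxd8. Hoxb2 and Hoxc6 had no entry, and Hoxb4 and Hoxc4, those with the smallest adjusted p among members with an entry, stand in for them. Each run gives the 250 bases before the start, 5′ to 3′ on the strand of the gene, with CG dinucleotides in capitals, at chr6:52240855-52241104 (minus strand), chr11:96318017-96318266 (plus), chr15:103034145-103034394 (plus) and chr2:74704365-74704614 (plus).
Hoxa10: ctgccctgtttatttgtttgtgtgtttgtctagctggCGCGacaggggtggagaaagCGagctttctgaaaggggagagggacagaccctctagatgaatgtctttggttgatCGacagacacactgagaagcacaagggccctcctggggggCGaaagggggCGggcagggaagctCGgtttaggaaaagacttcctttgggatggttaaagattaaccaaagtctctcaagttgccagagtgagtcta
Hoxb4: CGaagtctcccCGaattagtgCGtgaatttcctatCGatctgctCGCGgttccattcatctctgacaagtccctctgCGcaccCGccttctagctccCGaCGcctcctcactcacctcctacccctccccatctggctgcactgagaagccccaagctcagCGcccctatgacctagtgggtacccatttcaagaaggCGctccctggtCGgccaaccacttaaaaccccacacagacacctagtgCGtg
Hoxc4: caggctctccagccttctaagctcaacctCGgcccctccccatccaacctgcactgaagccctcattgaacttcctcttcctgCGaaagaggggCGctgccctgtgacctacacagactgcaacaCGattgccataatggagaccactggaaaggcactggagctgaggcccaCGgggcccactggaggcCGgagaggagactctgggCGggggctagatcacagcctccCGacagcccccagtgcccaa
Hoxd8: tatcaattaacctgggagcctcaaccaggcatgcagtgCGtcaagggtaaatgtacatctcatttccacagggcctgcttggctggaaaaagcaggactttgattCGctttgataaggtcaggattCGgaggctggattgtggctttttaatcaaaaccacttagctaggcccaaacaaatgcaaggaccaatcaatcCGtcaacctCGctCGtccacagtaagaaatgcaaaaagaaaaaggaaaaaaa
They hold 7, 14, 8 and 6 CG dinucleotides. Over windows of 300 bases (250 before and 50 after the start), the 22 members with an entry had a median of 13.5 CG dinucleotides (range 4 to 45), beside a median of 7 over 27025 promoters. CG-rich starts are typical of developmental genes under Polycomb control. On both strands of these windows the letters AGGTCA, part of the site that retinoic acid receptors bind, occurred in 31.8% of the 22 members and 16% of all promoters, TTTATG, a core of CDX factors, in 22.7% and 12.1%, and TGACAG, a core of MEIS factors, in 9.09% and 19.3%. Of the sequences shown, those of Hoxb4, Hoxc4 and Hoxd8 hold AGGTCA in their windows and the other motifs occur in none of the 4. These are counts of letters, and no binding was measured.

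Cluster C (chr15:102921103-103036852 in GRCm38, plus strand, 9 genes, positions from the GENCODE annotation) held the most abundant Hox transcripts of the Quiescent libraries. Hoxc8, which patterns the lower neck and chest, stood at 50.9, 52.4 and 64.8 CPM in Quiescent, 1.53, 0.979 and 0.736 in Active and 3.97, 3.56 and 12.2 in the UVB libraries. The 3 groups did not overlap, with the UVB libraries between the others and UVB replicate 3 the highest of them. In Active, Hoxc8 fell 51.0-fold (log2 fold change -5.67 ± 0.55 SE, adjusted p = 4.49e-05), and in UVB it fell 8.51-fold (log2 fold change -3.09 ± 0.48 SE, adjusted p = 0.000886). Between UVB and Active it rose 6.0-fold (log2 fold change 2.58 ± 0.51 SE, adjusted p = 0.00909), a log2 value of 1.78 without UVB replicate 3, and against Quiescent the change was -3.89 without that library.

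Hoxc6, a gene of the chest and forelimb level, stood at 35.1, 33.1 and 40.6 CPM in Quiescent, 1.37, 1.05 and 0.490 in Active and 5.86, 2.67 and 8.03 in UVB. It was again high in every Quiescent library, low in every Active library and between the others in UVB, without overlap. It fell 36.7-fold (log2 fold change -5.20 ± 0.48 SE, adjusted p = 3.58e-05) from Quiescent to Active and fell 6.56-fold (log2 fold change -2.71 ± 0.42 SE, adjusted p = 0.000896) from Quiescent to UVB. UVB libraries exceeded Active ones: Hoxc6 rose 5.59-fold (log2 fold change 2.48 ± 0.45 SE, adjusted p = 0.00665).

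Hoxc4, at the head end of the cluster, stood at 20.9, 17.9 and 23.4 CPM in Quiescent, 0.312, 0.326 and 0.327 in Active and 2.74, 0.959 and 5.16 in the UVB libraries. The Active libraries agreed closely, and UVB replicate 2 lay nearest to them. It fell 63.6-fold (log2 fold change -5.99 ± 0.60 SE, adjusted p = 5.07e-05) in Active and fell 7.01-fold (log2 fold change -2.81 ± 0.49 SE, adjusted p = 0.00171) in UVB relative to Quiescent, the latter -3.48 without UVB replicate 3. Hoxc4 in UVB rose 9.08-fold (log2 fold change 3.18 ± 0.56 SE, adjusted p = 0.00614) relative to Active, a log2 value of 2.51 without UVB replicate 3.

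Hoxc9, known for setting the chest identity of motor neurons, stood at 18.5, 21.1 and 15.6 CPM in Quiescent, 0.374, 0.181 and 0.245 in Active and 2.14, 0.685 and 3.51 in UVB, and all 3 groups were separate. It fell 67.1-fold (log2 fold change -6.07 ± 0.61 SE, adjusted p = 5.39e-05) in Active and fell 8.71-fold (log2 fold change -3.12 ± 0.51 SE, adjusted p = 0.00118) in UVB relative to Quiescent, and rose 7.71-fold (log2 fold change 2.95 ± 0.57 SE, adjusted p = 0.00899) in UVB relative to Active. Hoxc10, a gene of the loin and hindlimb level, stood at 19.5, 21.7 and 22.6 CPM in Quiescent, 0.436, 0 and 0.368 in Active and 5.89, 3.42 and 4.93 in UVB, again without overlap between groups and with 0 fragments in Active replicate 2. Hoxc10 fell 77.2-fold (log2 fold change -6.27 ± 0.68 SE, adjusted p = 7.98e-05) in Active and fell 4.47-fold (log2 fold change -2.16 ± 0.53 SE, adjusted p = 0.00931) in UVB relative to Quiescent. In UVB it rose 17.3-fold (log2 fold change 4.11 ± 0.65 SE, adjusted p = 0.00391) relative to Active, and without Active replicate 1 the log2 values were -6.87 for Active against Quiescent and 4.71 for UVB against Active. Hoxc10 and Hoxc5 share annotated exon bases, so fragments may have been divided between them. Hoxc5 stood at 9.11, 7.03 and 12.4 CPM in Quiescent, 0.405, 0.254 and 0.163 in Active and 0.599, 0.890 and 2.02 in UVB, high in Quiescent and separate in all groups. It fell 33.5-fold (log2 fold change -5.07 ± 0.57 SE, adjusted p = 9.42e-05) in Active, fell 8.10-fold (log2 fold change -3.02 ± 0.50 SE, adjusted p = 0.00126) in UVB, and rose 4.14-fold (log2 fold change 2.05 ± 0.54 SE, adjusted p = 0.0264) in UVB relative to Active, but the last call was lost without Active replicate 2 (adjusted p = 0.0933), Active replicate 3 (0.0786) or UVB replicate 3 (0.0651). Without UVB replicate 3 the log2 change against Quiescent was -3.67.

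Hoxc13, at the tail end of the same cluster, had a level under the limit for full values and was picked out after its values were seen. It stood at 0.821, 1.43 and 0.295 CPM in Quiescent, 2.84, 4.42 and 0.817 in Active and 0.756, 0.616 and 3.95 in the UVB libraries. The libraries of the 3 groups overlapped, with Active replicate 2 the highest and Quiescent replicate 3 the lowest. The differences did not pass the test (Active against Quiescent log2 fold change 1.66 ± 0.90 (SE), adjusted p = 0.144; UVB against Quiescent log2 fold change 1.06 ± 0.90 (SE), adjusted p = 0.36), and the second was -0.30 without UVB replicate 3. Krt71, a keratin of the inner root sheath of the hair, stood at 0.0391, 3.52 and 0.118 CPM in Quiescent, 104, 146 and 24.6 in Active and 0.0630, 0 and 16.3 in UVB, and Krt35, a keratin of the hair shaft, at 1.37, 12.6 and 0 CPM in Quiescent, 17.4, 43.8 and 6.82 in Active and 0.473, 0.103 and 34.2 in the UVB libraries. The summed level of the 11 markers of keratinocytes and hair follicle was 1931, 581 and 118 CPM in Quiescent, 1383, 1189 and 818 in Active and 644, 268 and 448 in UVB, and the part of these cells in the Hoxc13 values was not tested. In Active and in UVB the libraries ran in the same order by Hoxc13 as by Krt71, and in Quiescent they did not. By Krt35 the order was the same as by Hoxc13 in all 3 groups, and by the sum of the 11 markers it differed in all 3. Krt71 and Krt35 are only a part of these 11 markers.

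Cluster D (chr2:74668310-74765142, plus strand, 9 genes) had 5 tested members. Hoxd8, a gene of the trunk, stood at 32.4, 21.2 and 26.8 CPM in Quiescent, 1.37, 1.63 and 1.14 in Active and 7.12, 4.11 and 13.7 in UVB. No group overlapped another. It fell 19.3-fold (log2 fold change -4.27 ± 0.45 SE, adjusted p = 6.47e-05) in Active and fell 3.23-fold (log2 fold change -1.69 ± 0.39 SE, adjusted p = 0.00694) in UVB relative to Quiescent, and rose 5.98-fold (log2 fold change 2.58 ± 0.42 SE, adjusted p = 0.00463) in UVB relative to Active. With library size alone, its change in UVB against Quiescent was -0.97 and not called (adjusted p = 0.0534). Hoxd9, which takes part in forming the upper limb segment, stood at 11.6, 9.83 and 5.84 CPM in Quiescent, 0.561, 0.363 and 0.163 in Active and 3.4, 2.67 and 6.41 in UVB. Quiescent and UVB overlapped in UVB replicate 3 and Quiescent replicate 3, and Active was lower than both. Hoxd9 fell 24.4-fold (log2 fold change -4.61 ± 0.54 SE, adjusted p = 0.000123) in Active and rose 11.1-fold (log2 fold change 3.48 ± 0.52 SE, adjusted p = 0.00331) in UVB relative to Active, whereas UVB against Quiescent missed the threshold (log2 fold change -1.13 ± 0.45 (SE), adjusted p = 0.066) and passed it with DESeq2 (0.0248) and without Quiescent replicate 3 (0.0431), Active replicate 3 (0.0451) or UVB replicate 3 (0.0231).

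Hoxd4, a gene of the hindbrain and neck level, stood at 14.5, 11.5 and 10.7 CPM in Quiescent, 0.280, 0.616 and 0.0409 in Active and 2.93, 2.09 and 6.51 in the UVB libraries. The groups were separate, with Active replicate 3 nearest to 0. Hoxd4 fell 38.2-fold (log2 fold change -5.25 ± 0.72 SE, adjusted p = 0.0003) in Active (log2 -6.13 without Active replicate 2) and rose 12-fold (log2 fold change 3.58 ± 0.69 SE, adjusted p = 0.00855) in UVB relative to Active (log2 4.45 without Active replicate 2 and 2.97 without UVB replicate 3). Its fall from Quiescent to UVB (log2 fold change -1.67 ± 0.59 (SE), adjusted p = 0.0427) was no longer called without any 1 of the Quiescent libraries, Active replicate 1, UVB replicate 1 or UVB replicate 2 (adjusted p of 0.06 to 0.13). Hoxd3 stood at 8.44, 6.14 and 7.56 CPM in Quiescent, 0.125, 0 and 0.123 in Active and 1.42, 0.685 and 2.63 in UVB, separate in all groups and listed at 0 in Active replicate 2. It fell 84.3-fold (log2 fold change -6.40 ± 0.77 SE, adjusted p = 0.000143) in Active, the largest change of the 28 members in that comparison, fell 4.67-fold (log2 fold change -2.22 ± 0.58 SE, adjusted p = 0.0126) in UVB and rose 18.1-fold (log2 fold change 4.17 ± 0.75 SE, adjusted p = 0.00664) in UVB relative to Active. Its Active level rests on 4, 0 and 3 fragments. The log2 changes of Hoxa10 (-6.32) and Hoxc10 (-6.27) in Active lay within its SE. Hoxd3 and Hoxd4 share exon bases, and both overlap genes on the opposite strand.

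Hoxd10, at the tail end of the tested members of cluster D, was likewise under the limit for full values and was picked out after its values were seen. It stood at 2.03, 1.79 and 1.18 CPM in Quiescent, 0.0935, 0.0725 and 0.0409 in Active and 1.26, 1.88 and 2.40 in UVB. Active libraries were near 0, while Quiescent and UVB overlapped. It fell 22.3-fold (log2 fold change -4.48 ± 0.49 SE, adjusted p = 8.40e-05) in Active and rose 24.6-fold (log2 fold change 4.62 ± 0.49 SE, adjusted p = 0.000867) in UVB relative to Active, and UVB against Quiescent did not pass the test (log2 fold change 0.14 ± 0.38 (SE), adjusted p = 0.78), with a change of sign to -0.09 without UVB replicate 3 and -0.05 without Quiescent replicate 3. Hoxd10 had the largest rise of all tested members from Active to UVB. Its Active level rests on 3, 2 and 1 fragments, and the log2 changes of Hoxa10 (4.25) and Hoxd3 (4.17) from Active to UVB lay within its SE.

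Cluster A (chr6:52155590-52260880, minus strand, 11 genes) fell most in its high numbered members in Active relative to Quiescent. Hoxa10, a gene of the loin level that is also needed in the uterus and whose start holds 7 CG dinucleotides in the sequence shown, stood at 14.1, 11.5 and 12.7 CPM in Quiescent, 0.156, 0.0725 and 0.245 in Active and 3.91, 1.40 and 3.81 in UVB. It was high in Quiescent and near 0 in Active, and the groups did not overlap. Hoxa10 fell 79.6-fold (log2 fold change -6.32 ± 0.54 SE, adjusted p = 2.34e-05) in Active, the smallest adjusted p of the family in that comparison, fell 4.19-fold (log2 fold change -2.07 ± 0.41 SE, adjusted p = 0.0034) in UVB, and rose 19.0-fold (log2 fold change 4.25 ± 0.52 SE, adjusted p = 0.0014) in UVB relative to Active. Hoxa9, known for its part in blood progenitors and leukaemia, stood at 8.91, 7.74 and 6.14 CPM in Quiescent, 0.156, 0.0725 and 0.123 in Active and 1.67, 0.719 and 2.26 in UVB, with the same separation. Hoxa9 fell 61.9-fold (log2 fold change -5.95 ± 0.53 SE, adjusted p = 2.98e-05) in Active, fell 4.89-fold (log2 fold change -2.29 ± 0.42 SE, adjusted p = 0.00219) in UVB and rose 12.7-fold (log2 fold change 3.66 ± 0.51 SE, adjusted p = 0.00256) in UVB relative to Active. The Active levels rest on 5, 2 and 6 fragments for Hoxa10 and 5, 2 and 3 for Hoxa9, so the sizes of these changes are uncertain.

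Hoxa7, a gene of the chest level, stood at 5.08, 5.36 and 5.43 CPM in Quiescent, 0.405, 0.254 and 0.490 in Active and 1.23, 0.685 and 2.13 in the UVB libraries. The Quiescent libraries were nearly equal and the groups were separate. It fell 13.7-fold (log2 fold change -3.77 ± 0.47 SE, adjusted p = 0.000163) in Active and fell 3.92-fold (log2 fold change -1.97 ± 0.42 SE, adjusted p = 0.00466) in UVB relative to Quiescent, while its rise from Active to UVB (log2 fold change 1.8 ± 0.45 (SE), adjusted p = 0.0223) was not called without Active replicate 1 (0.0674), Active replicate 2 (0.0873), UVB replicate 1 (0.0524) or UVB replicate 3 (0.0553). Hoxa2, Hoxa3, Hoxa5 and Hoxa6 had group means of at most 3.71 CPM and fell in Active, with log2 changes of -3.65 for Hoxa3 at one end and -1.73 for Hoxa5 at the other. The call of Hoxa5 (log2 fold change -1.73 ± 0.53 (SE), adjusted p = 0.0207) was lost without Quiescent replicate 1 (0.0694), Active replicate 2 (0.0729) or Active replicate 3 (0.0611), and Hoxa6 changed by -2.13 in place of -2.96 without Quiescent replicate 1. Across the 8 tested genes of the cluster, the paralogue number and the log2 change in Active had a Spearman rho of -0.81, a description over neighbouring genes that share libraries. The same value was 0.74 over 8 genes in cluster B, -0.04 over 7 in cluster C and 0.70 over 5 in cluster D, so the direction along the cluster was not shared. For UVB against Quiescent it was -0.24, 0.86, 0.39 and 0.90 in clusters A, B, C and D. For UVB against Active it was 0.90, 0.71, -0.11 and 0.10.

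Cluster B (chr11:96194316-96368256, plus strand, 10 genes) held the 3 called members with the smallest falls in Active, Hoxb4, Hoxb3 and Hoxb6. Hoxb2, which is active in the embryonic hindbrain, stood at 18.3, 18.5 and 20.3 CPM in Quiescent, 3.27, 4.64 and 2.45 in Active and 5.26, 3.56 and 6.61 in UVB. Quiescent was above both other groups, which overlapped. It fell 5.5-fold (log2 fold change -2.46 ± 0.29 SE, adjusted p = 0.000137) in Active and fell 3.69-fold (log2 fold change -1.89 ± 0.29 SE, adjusted p = 0.000823) in UVB relative to Quiescent, and UVB against Active did not pass (log2 fold change 0.57 ± 0.28 (SE), adjusted p = 0.177). Hoxb4, studied as a factor that expands blood stem cells, stood at 9.97, 9.53 and 8.21 CPM in Quiescent, 3.33, 3.63 and 4.05 in Active and 4.76, 3.42 and 6.45 in UVB, with the same arrangement of the groups. Hoxb4 fell 2.52-fold (log2 fold change -1.33 ± 0.25 SE, adjusted p = 0.00187) in Active and fell 1.89-fold (log2 fold change -0.92 ± 0.25 SE, adjusted p = 0.0146) in UVB, the latter with an adjusted p of 0.0508 without UVB replicate 1. UVB and Active gave no call for Hoxb4 (log2 fold change 0.41 ± 0.25 (SE), adjusted p = 0.266).

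Hoxb3, a gene of the hindbrain level, stood at 11.1, 8.10 and 8.44 CPM in Quiescent, 3.99, 4.21 and 2.53 in Active and 7.47, 3.90 and 10.1 in UVB. Active was below Quiescent, and the UVB libraries overlapped both groups. It fell 2.57-fold (log2 fold change -1.36 ± 0.36 SE, adjusted p = 0.0102) in Active, and the other comparisons gave no call (log2 fold change -0.36 ± 0.35 (SE), adjusted p = 0.42 against Quiescent and log2 fold change 1.0 ± 0.36 (SE), adjusted p = 0.0726 against Active), although UVB against Active passed with DESeq2 (0.0338) and without UVB replicate 2 (0.0197). Hoxb5 and Hoxb6 had group means of at most 4.34 CPM and fell in Active (log2 -2.40 ± 0.59 and -1.55 ± 0.51 SE). The Hoxb6 call was lost without Quiescent replicate 1 (0.0888), Quiescent replicate 2 (0.0574), Active replicate 1 (0.0542) or Active replicate 3 (0.0822). Hoxb3, Hoxb4, Hoxb6 and Hoxa5 lost their call in Active when libraries were scaled by their size alone.

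Hoxb7, which has been studied in human melanoma cells, stood at 5.67, 3.04 and 2.89 CPM in Quiescent, 3.24, 3.12 and 2.25 in Active and 6.96, 2.57 and 8.03 in UVB. All 3 groups overlapped. No comparison passed the test: Active against Quiescent gave log2 fold change -0.44 ± 0.45 (SE), adjusted p = 0.43, UVB against Quiescent log2 fold change 0.59 ± 0.44 (SE), adjusted p = 0.299 and UVB against Active log2 fold change 1.03 ± 0.45 (SE), adjusted p = 0.128, the last called without UVB replicate 2 (0.0306). A p that misses the threshold does not show that the levels were equal. Hoxb8 had group means of 1.45 to 4.47 CPM. Hoxb8 rose 3.06-fold (log2 fold change 1.61 ± 0.47 SE, adjusted p = 0.0381) in UVB relative to Active, a call lost without any 1 of the Active libraries, UVB replicate 1 or UVB replicate 3 (adjusted p of 0.0916 to 0.11), and it passed in Active against Quiescent without Quiescent replicate 3 (0.0263).

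Hoxb9, the last tested gene of cluster B and a gene of the chest level, was the one member called higher in UVB than in Quiescent by edgeR, of 5 tested members with a log2 change above 0. It stood at 9.93, 11.4 and 6.97 CPM in Quiescent, 2.71, 2.83 and 13 in Active and 36.4, 22.2 and 32.0 in the UVB libraries. The UVB libraries were above all others, and Active replicate 3 stood far above the other Active libraries and above all Quiescent ones. Hoxb9 rose 3.2-fold (log2 fold change 1.68 ± 0.57 SE, adjusted p = 0.0373) in UVB relative to Quiescent. That call was lost without Quiescent replicate 1 (0.0858), 2 (0.0595) or 3 (0.101), UVB replicate 1 (0.0981) or UVB replicate 3 (0.0677), with log2 values of 1.5 to 1.83. Relative to Active it rose 4.92-fold (log2 fold change 2.30 ± 0.58 SE, adjusted p = 0.0237), which was log2 3.4 without Active replicate 3 and not called without Active replicate 1 (0.0693), Active replicate 2 (0.0797), UVB replicate 1 (0.069) or UVB replicate 3 (0.0501). Active against Quiescent gave no call (log2 fold change -0.62 ± 0.57 (SE), adjusted p = 0.375), but without Active replicate 3 it was -1.75 (adjusted p = 0.00156).

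**Figure D2:**
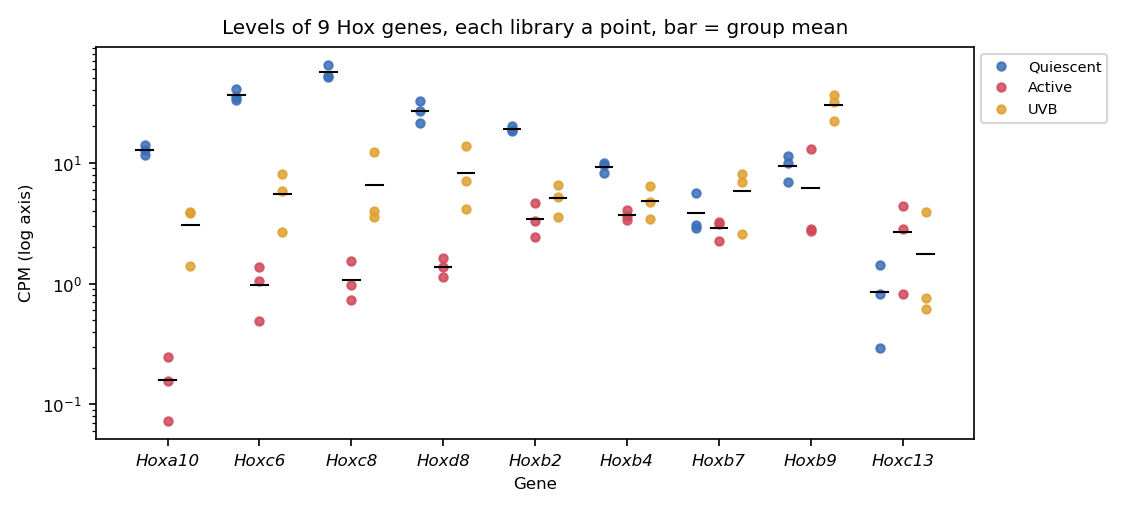
CPM on a log axis of 9 Hox genes, with each library as a point and the group mean as a bar. Hoxa10, Hoxc6, Hoxc8 and Hoxd8 step down from Quiescent to UVB to Active without overlap, whereas for Hoxb7 and Hoxc13 the groups overlap and for Hoxb9 the UVB libraries, at 22.2 to 36.4 CPM, are the highest.

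Between UVB and Quiescent, 15 of the 28 tested members were lower in UVB and 1, Hoxb9, was higher, where 23.2% of all tested genes were lower and 25.8% were higher. The median log2 change was -1.68, beside 0.02 over all genes, and 16 members were lower without overlap, against 27.4% of all genes that were lower and 30.2% that were higher in this way. Cluster C fell in 6 of 7 tested members, cluster A in 4 of 8, cluster D in 3 of 5 and cluster B in 2 of 8. Members called lower were Hoxa3, Hoxa7, Hoxa9, Hoxa10, Hoxb2, Hoxb4, Hoxc4, Hoxc5, Hoxc6, Hoxc8, Hoxc9, Hoxc10, Hoxd3, Hoxd4 and Hoxd8. Scaled by library size alone the split was 11 lower and 3 higher, with Hoxb7 and Hoxb8 added to Hoxb9, and each of the 15 falls was smaller by over 1.5 times. Hoxa3 (adjusted p = 0.0753), Hoxb4 (0.503), Hoxd4 (0.191) and Hoxd8 lost their call there. The summed level of cluster B overlapped between the groups, at 66.5, 59.8 and 50.9 CPM in Quiescent and 69.8, 40.4 and 73.8 CPM in UVB, whereas that of cluster C was 155, 155 and 180.1 CPM against 22.2, 12.8 and 39.9 CPM.

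Between UVB and Active, the comparison that uses no library labelled Quiescent for its difference, 17 of the 28 tested members were higher in UVB and 0 were lower, where 14.8% of all tested genes were higher and 9.19% were lower. Without adjustment, p was under 0.05 for 21 members in the higher and 0 in the lower direction, and DESeq2 and limma also called 0 lower. Members near 0 in Active, such as Hoxa9 and Hoxd3, passed the filter through the other groups and could hardly be called lower in UVB. The median log2 change was 2.17, beside 0.01 over all genes, and in 18 members all UVB libraries lay above all Active ones, against 25% of all genes. Cluster D rose in 5 of 5 tested members (median 3.58), cluster C in 6 of 7 (median 2.58), cluster A in 4 of 8 (median 1.77) and cluster B in 2 of 8 (median 1.01). Fitted on the 6 libraries of these groups alone, 17 of 25 tested members were higher. The comparisons share groups, so their calls are not independent of each other. Hoxa6 (log2 fold change 2.32 ± 0.69 (SE), adjusted p = 0.0411) lost its call without any 1 of the 6 libraries, and Hoxa3 (log2 fold change 1.73 ± 0.58 (SE), adjusted p = 0.0584) gained one without UVB replicate 2 (0.0123) and with DESeq2 (0.0267).

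**Figure D3:**
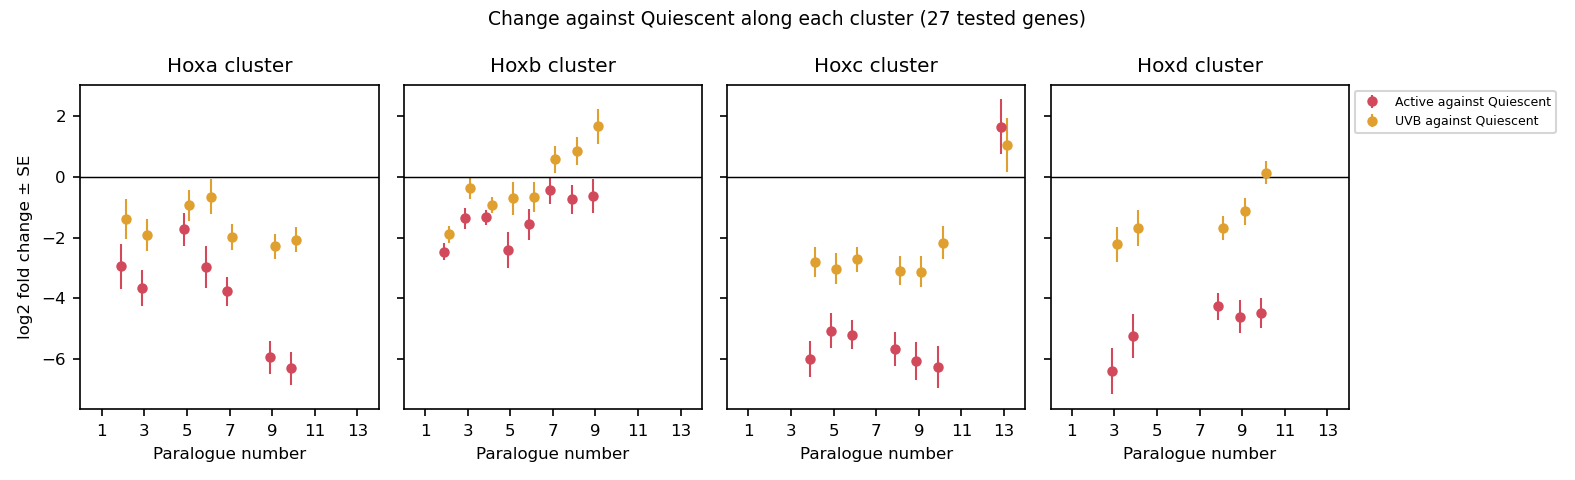
log2 fold change of 27 tested members against Quiescent with its standard error, by paralogue number, in 1 panel per cluster. Apart from Hoxc13, clusters C and D lie between -6.40 and -4.27 in Active and between -3.12 and 0.14 in UVB, whereas Hoxb7, Hoxb8 and Hoxb9 lie between -0.74 and -0.44 in Active and between 0.59 and 1.68 in UVB.

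The make-up of the Hox transcripts was also described within each library, as the share of the summed Hox FPKM, which does not depend on the scaling between libraries. Cluster C held 46.2, 51.7 and 56.5% in Quiescent, 20.8, 19.2 and 9.74% in Active and 20.6, 19.9 and 25.5% in UVB. Cluster B held 19.8, 19.4 and 16.0% in Quiescent, 60.5, 66.2 and 74.9% in Active and 53.4, 52.7 and 42.8% in UVB. Quiescent libraries were thus led by cluster C and the other groups by cluster B, with no overlap of Quiescent with either. The means were 51.4% ± 5.16, 16.6% ± 5.97 and 22.0% ± 3.05 (SD, n = 3) for cluster C and 18.4% ± 2.05, 67.2% ± 7.22 and 49.6% ± 5.93 for cluster B in Quiescent, Active and UVB. Cluster D held 22.6, 18.2 and 18.5% in Quiescent, 8.73, 9.53 and 6.42% in Active and 15.8, 19.6 and 22.7% in UVB, so it was lowest in Active and alike in range in the other groups. Cluster A held between 5.03% and 11.4% in all libraries, and its groups overlapped. By body level, genes 1 to 3 held 12% ± 0.405 in Quiescent, 20.6% ± 4.37 in Active and 11.5% ± 0.252 in UVB. Genes 4 to 8 held 63.2% ± 2.95, 54.9% ± 6.26 and 50.8% ± 5.24, and genes 9 to 13 held 24.8% ± 2.84, 24.5% ± 10.0 and 37.7% ± 5.25. The share of genes 1 to 3 was above both other groups in every Active library, and the share of genes 9 to 13 was above Quiescent in every UVB library, while Active replicate 3, with its high Hoxb9, overlapped UVB.

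**Figure D4:**
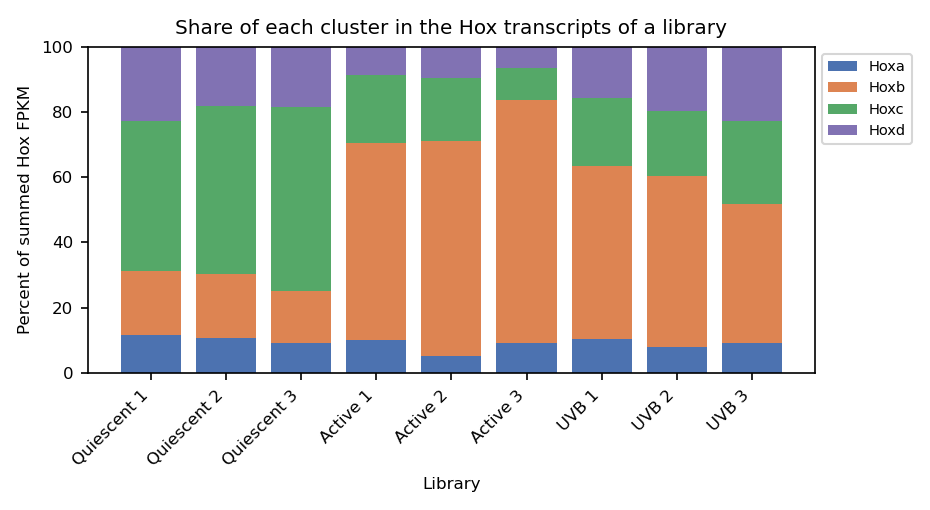
Share of the summed Hox FPKM held by each cluster in each library, as stacked bars that add to 100%. The Hoxc share is 46.2 to 56.5% in Quiescent, 9.74 to 20.8% in Active and 19.9 to 25.5% in UVB, and the Hoxb share is 16.0 to 19.8%, 60.5 to 74.9% and 42.8 to 53.4%.

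Ordered by FPKM, the leading genes differed between the groups. In Quiescent they were Hoxc6 at 25.1 ± 2.79 FPKM, Hoxc8 at 24.9 ± 3.44 and Hoxd8 at 21.1 ± 4.52 (SD, n = 3), which overlapped each other and lay above the next, Hoxb2, at 12.8 ± 0.779. In Active they were Hoxb7 at 2.58 ± 0.503, Hoxb9 at 2.35 ± 2.23 and Hoxb2 at 2.32 ± 0.762, which overlapped each other, and Hoxb2 lay above Hoxb4 at 1.49 ± 0.136 without overlap. Active replicate 3 decided the place of Hoxb9, with 4.92 FPKM beside 1.04 and 1.09 in the others. In UVB the order was Hoxb9 at 11.4 ± 2.62, Hoxd8 at 6.39 ± 3.65 and Hoxb7 at 5.16 ± 2.49, each overlapping the next. The FPKM of Hoxb9 divided by that of Hoxc8 was 0.169, 0.189 and 0.0934 in Quiescent, 1.54, 2.51 and 15.3 in Active and 7.96, 5.40 and 2.27 in UVB, below 1 in every Quiescent library and above 1 in every other library. That pair was chosen after the values were seen.

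Markers of skin cell types were set beside the Hox genes, and some lists moved in the same direction and others did not. All 12 dermal fibroblast markers were lower in Active than in Quiescent (median log2 change -5.83), 10 of 12 were lower in UVB than in Quiescent (median -2.82) and 11 of 12 were higher in UVB than in Active (median 3.36). Their summed level was 390499, 336719 and 454953 CPM in Quiescent, 4873, 6175 and 5956 in Active and 29605, 22385 and 35134 in UVB, in the same order of groups as the Hox sum. Melanocyte markers went the other way, with 9 of 10 higher in Active than in Quiescent, 7 of 10 higher in UVB than in Quiescent, and a summed level of 117, 229 and 87.3 CPM in Quiescent, 12731, 7876 and 8284 in Active and 1082, 922 and 1152 in UVB. All 8 endothelial markers and all 7 of smooth muscle and pericytes were lower in Active than in Quiescent, as were 5 of 8 myeloid markers; 3 of 11 of keratinocytes and hair follicle were higher. Of T cell markers 1 of 6 was higher and 1 lower, of Schwann cell markers 3 of 7 higher and 2 lower, of dermal papilla markers 3 of 8 higher and 2 lower, and of mast cell markers 5 of 5 were higher in UVB than in Quiescent. In UVB relative to Active, a difference that leaves out Quiescent, 8 of 8 endothelial markers (median log2 change 3.13), 6 of 8 myeloid (4.11), 6 of 6 T cell (2.87), 5 of 5 mast cell (3.38) and 3 of 7 smooth muscle and pericyte markers (0.44) were higher, and 8 of 10 melanocyte markers were lower (-3.24). There, 0 of 11 keratinocyte and hair follicle markers were called in either direction (-1.09). Of dermal papilla markers 1 of 8 was higher (0.93), and of Schwann cell markers 0 of 7 were higher and 1 lower (0.30). Against Quiescent, 5 of 6 T cell and 2 of 8 myeloid markers were higher in UVB, and 4 of 8 endothelial and 7 of 7 smooth muscle and pericyte markers were lower. Over all tested genes, 14.8% were higher and 9.19% lower in UVB than in Active. Against Quiescent, the general shares were 29.1% up and 29.2% down for Active, and 25.8% up and 23.2% down for UVB. In Active, the 3 of 11 keratinocyte and hair follicle markers that were higher lie near the general share. The T cell counts of 1 of 6 in each direction lie below it. With library size alone, 4 of 6 T cell and 2 of 7 smooth muscle and pericyte markers were higher in UVB than in Active. Against Quiescent, the endothelial split in UVB was then 1 higher and 1 lower. Under that scaling, 11 of 12 fibroblast markers and 3 of 8 myeloid markers were lower in Active, and 10 of 10 melanocyte markers were higher. The part of these cell types in the Hox values was not tested.

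Pdgfra, a receptor that marks dermal fibroblasts, stood at 1029.5, 1096 and 1169 CPM in Quiescent, 18.9, 11.6 and 14.8 in Active and 169, 80.3 and 361 in UVB. Set against it, in a ratio chosen after the values were seen and not tested, the clusters took different levels. As a percentage of the Pdgfra level, summed cluster C was 15.1, 14.1 and 15.4% in Quiescent, 38.7, 62.6 and 21.2% in Active and 13.2, 16.0 and 11.1% in UVB, so the Quiescent and UVB libraries overlapped and Active lay above both. Hoxc13 held 2.84, 4.42 and 0.817 CPM of the 7.32, 7.29 and 3.15 CPM of that sum in Active. Hoxc8 alone stood at 4.94, 4.78 and 5.54% of Pdgfra in Quiescent and 8.07, 8.41 and 4.96% in Active, so these groups overlapped. Summed cluster B was 6.46, 5.45 and 4.36% in Quiescent, 106, 192 and 179% in Active and 41.4, 50.3 and 20.4% in UVB, and no group overlapped another. Summed cluster A stood at 3.91, 3.24 and 2.71% in Quiescent, 16.5, 14 and 17.1% in Active and 6.84, 5.58 and 3.92% in UVB, where Quiescent and UVB came within a narrow gap of each other. For cluster D the values were 6.73, 4.66 and 4.48% in Quiescent, 12.9, 23.1 and 10.2% in Active and 9.62, 14.4 and 8.76% in UVB, with Quiescent below both other groups, which overlapped. Prrx1, a gene of limb and dermal mesenchyme outside the Hox family, stood at 74.8, 65.8 and 70.6% of Pdgfra in Quiescent. In Active it stood at 115, 190 and 206% and in UVB at 72.9, 135 and 63.5%. A level above Quiescent in every Active library was thus not particular to the Hox clusters. Within UVB, replicate 2 was lowest in 25 of the 28 tested Hox genes and in 11 of 12 fibroblast markers, beside 6491 of 15078 genes, and replicate 3 was highest in 24 of 28 and in 11 of 12, beside 6743. Most Hox levels of the UVB libraries thus ran in the order of their fibroblast markers. The summed melanocyte (1082, 922 and 1152 CPM), myeloid (578, 557 and 1097) and mast cell markers (58.7, 56.7 and 112) ran in that order too. Those of the endothelial, smooth muscle and pericyte, keratinocyte, T cell, Schwann cell and dermal papilla lists did not.

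**Figure D5:**
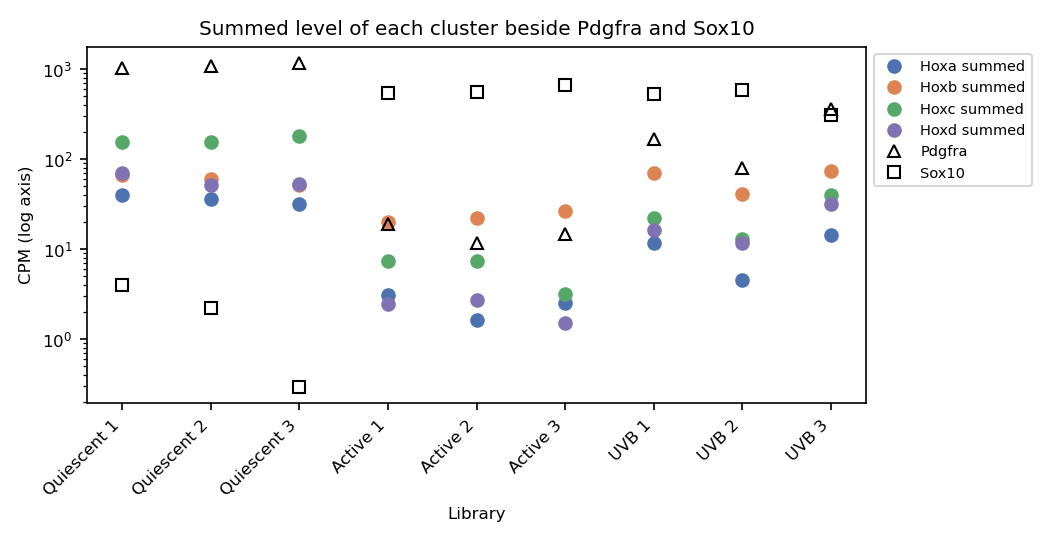
Summed CPM of each Hox cluster (filled circles) in each library, with the fibroblast receptor Pdgfra and the melanocyte factor Sox10 as open symbols, on a log axis. In Quiescent, Pdgfra lies at 1029.5 to 1169 CPM and Sox10 at 0.295 to 3.99 CPM; in Active, Pdgfra lies at 11.6 to 18.9 CPM and Sox10 at 551 to 660.4 CPM, while cluster B is the highest of the clusters in Active and UVB.

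Genes that work with the Hox proteins were described from lists. Of the 9 TALE cofactors, 3 rose and 4 fell in Active relative to Quiescent, 4 were higher and 4 lower in UVB than in Quiescent, and 2 higher in UVB than in Active. Over all tested genes, 29.1% were higher and 29.2% lower in Active, 25.8% and 23.2% in UVB relative to Quiescent, and 14.8% and 9.19% in UVB relative to Active. Scaled by library size alone, the split was 5 higher and 3 lower in Active and 5 higher and 2 lower in UVB. Meis1, a partner of many Hox proteins, stood at 41.1, 47.8 and 50.002 CPM in Quiescent, 3.4, 3.52 and 6.17 in Active and 10.2, 6.27 and 9.82 in UVB, highest in Quiescent without overlap (log2 fold change -3.41 ± 0.29 (SE), adjusted p = 2.25e-05 in Active). Pknox2, a relative of Meis, went the other way at 1.8, 2.62 and 1.48 CPM in Quiescent, 21.7, 27.2 and 20.9 in Active and 12.7, 19.0 and 9.95 in UVB (log2 fold change 3.57 ± 0.31 (SE), adjusted p = 2.57e-05).

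Other homeobox and T-box genes that mark limb, trunk and dermal position fell in 13 of 20 tested cases in Active and rose in 3 (median -3.61), fell in 10 and rose in 3 in UVB relative to Quiescent (median -1.27), and rose in 8 in UVB relative to Active (median 1.17). Over all genes, 29.2% fell and 29.1% rose in Active. In UVB, 23.2% fell and 25.8% rose relative to Quiescent, and 9.19% fell and 14.8% rose relative to Active. With library size alone the split in Active was 11 lower and 5 higher. Prrx1, a gene of limb and dermal mesenchyme, stood at 769.9, 722 and 826 CPM in Quiescent, 21.8, 22.1 and 30.6 in Active and 123, 109 and 229 in UVB (log2 fold change -4.96 ± 0.32 (SE), adjusted p = 7.82e-06 in Active). En1, which marks a fibroblast lineage of the back skin and the belly side of the limb, stood at 31.7, 29.8 and 32.4 CPM in Quiescent, 0.343, 0.616 and 0.327 in Active and 5.86, 2.98 and 8.84 in UVB (log2 fold change -6.17 ± 0.46 (SE), adjusted p = 1.32e-05). Prrx2, a relative of Prrx1, was also lower (log2 fold change -5.38 ± 0.39 (SE), adjusted p = 1.19e-05). The limb genes Tbx5 and Tbx4, the first of the forelimb and the second of the hindlimb, were chosen with their values known. Tbx5 stood at 9.89, 10.4 and 0.826 CPM in Quiescent, 0.0623, 0 and 0 in Active and 0, 0 and 0.202 in UVB, with Quiescent replicate 3 well below the other Quiescent libraries. Tbx4 stood at 0.0391, 0.179 and 0.0590 CPM in Quiescent, 4.27, 5.95 and 7.72 in Active and 7.88, 8.39 and 5.87 in UVB, low in Quiescent and without overlap. Tbx4 rose in Active (log2 fold change 6.04 ± 0.49 (SE), adjusted p = 1.92e-05). The labels give no body site for the skin.

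Of 17 tested genes of retinoic acid handling, 6 were higher and 7 lower in Active (29.1% and 29.2% over all genes), 4 higher and 4 lower in UVB relative to Quiescent (25.8% and 23.2%), and 5 higher and 1 lower in UVB relative to Active (14.8% and 9.19%). Library size alone gave 8 higher and 4 lower in Active and 7 higher and 1 lower in UVB relative to Quiescent. Aldh1a3, an enzyme that makes retinoic acid, stood at 3.36, 2.86 and 2.83 CPM in Quiescent, 227, 184 and 232 in Active and 189, 215 and 159 in UVB (log2 fold change 6.14 ± 0.18 (SE), adjusted p = 4.51e-07 in Active). Cyp26b1, which breaks it down, stood at 852, 917 and 424 CPM in Quiescent, 8.66, 7.36 and 10.7 in Active and 171, 85.1 and 352 in UVB (log2 fold change -6.36 ± 0.60 (SE), adjusted p = 3.83e-05). Rxrg, a partner receptor, was higher in Active (log2 fold change 4.71 ± 0.54 (SE), adjusted p = 0.000102).

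Of the 23 Polycomb subunits, 10 were higher and 7 lower in Active (29.1% and 29.2% over all genes), 9 higher and 5 lower in UVB relative to Quiescent (25.8% and 23.2%), and 1 higher and 3 lower in UVB relative to Active (14.8% and 9.19%). The numbers of lower genes lie near the shares over all genes in the comparisons with Quiescent. With library size alone, 17 were higher and 1 lower in Active and 17 were higher in UVB relative to Quiescent, so the split depends on the scaling. Ezh2, the enzyme that places the repressive mark and is high in dividing cells, stood at 10.9, 12.7 and 13.3 CPM in Quiescent, 86.5, 91.8 and 84.6 in Active and 78.9, 111 and 57.1 in UVB (log2 fold change 2.83 ± 0.23 (SE), adjusted p = 1.79e-05 in Active). Phc2 and Rbbp4 were higher too (log2 fold change 1.28 ± 0.12 (SE), adjusted p = 3.10e-05, and log2 fold change 1.14 ± 0.14 (SE), adjusted p = 0.000156). Of 12 Trithorax group genes, 5 were higher and 1 lower in Active, 9 higher in UVB relative to Quiescent, and 4 higher and 1 lower in UVB relative to Active, with Dpy30 (log2 fold change 1.17 ± 0.11 (SE), adjusted p = 4.18e-05 in Active), Ash2l (log2 fold change 1.07 ± 0.11 (SE), adjusted p = 6.19e-05) and Wdr5 (log2 fold change 0.85 ± 0.14 (SE), adjusted p = 0.000842) having the smallest adjusted p. With library size alone, 10 were higher in Active and 12 of 12 in UVB relative to Quiescent. The medians of these 2 lists in Active were 0.30 and 0.27, beside 0.01 over all genes, and 1.06 and 1.02 beside 0.76 with library size alone. No chromatin mark was measured.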

How the data were processed

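Per the submitters' processing notes, the tools were cutadapt 1.8, TopHat2 2.0.13 and Cuffdiff 2.2.1 on build mm10. Cells were sorted, and libraries were made from poly(A) RNA with a directional kit, per the labels' protocols. No source used here gives the strand setting of the counting, so the 12 members that overlap another member or a gene on the opposite strand are uncertain. The deposited table holds the authors' estimated counts (fragments before scaling between libraries) and the authors' FPKM (per kilobase and per scaled library total). Of the estimated counts 1.08% were not whole to within 1e-06, none of them in a Hox gene.

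Counts were rounded and tested in edgeR 4.0.16 (R 4.3.3; quasi-likelihood F test, TMM factors of 0.660 to 1.225, 1 fit of 9 libraries, two-sided). The function filterByExpr removed 8283 genes and left 15078, over which Benjamini-Hochberg adjustment ran with a threshold of 0.05. Each SE was computed as the log2 fold change over the square root of its F value. The fit was tested on simulated data, in which only a few genes differed between groups, so that test cannot check the scaling between these groups. Libraries of a group differed by more than sampling noise (chi-square per degree of freedom 25.6 to 120.2). Alternatives were other scaling factors, other filters, DESeq2 1.42.0, limma 3.58.1 on log2 FPKM with pseudocounts of 1 and 0.1, a replicate block, the groups compared alone, and leaving out each library. The limit of 3 fragments covers counting error only.

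Members and lists were chosen with earlier results of these data known. By rule, values in every library are given for up to 20 tested members with a mean of at least 5 CPM in any group. From each related list up to 3 genes with the smallest adjusted p are named. Where none passed, at most 2 abundant ones are. Sox10, Tyr, Col1a1 and Pdgfra check the labelled cell type. Positions come from GENCODE on GRCm38, and promoters were found for 22 of 39 members by symbol. Protein sequences are not analysed here. Some genes are not reported here by name, although they enter the counts, medians and sums.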

Additional observations from a re-analysis of the deposited data

How the results depend on the processing

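The count of lower members in Active against Quiescent was 23 and ran from 19 to 27 over the other settings and from 21 to 24 when 1 library was left out. For UVB against Quiescent it was 15, with 11 to 18 and 13 to 18, and for UVB against Active the count of higher members was 17, with 15 to 21 and 12 to 19. Scaled by library size alone, which moved the median of all genes to 0.76 (Active) and 0.74 (UVB) against Quiescent, the count of higher members went from 0 to 1 in Active (Hoxc13, log2 2.39, adjusted p = 0.0446) and from 1 to 3 in UVB. There the log2 ratio of the summed Hox level was -2.49 in place of -3.24 in Active and -0.72 in place of -1.44 in UVB, and signs reversed for Hoxb7 (0.31) and Hoxb9 (0.094) in Active and for Hoxa6 (0.057), Hoxb3 (0.35), Hoxb5 (0.0070) and Hoxb6 (0.031) in UVB, none of them called. Hoxa3, Hoxb4, Hoxd4 and Hoxd8 lost their call in UVB under that scaling. The share of cluster D in Active was 6.59% as fragments in place of 8.23% as FPKM, which divides by length. Leaving out 1 library took the UVB count of higher members to 0 to 1 and gave reversals in UVB against Quiescent for Hoxa6 (-0.99 to 0.19, above 0 without Quiescent replicate 1), Hoxc13 (-0.30 to 1.62, below 0 without UVB replicate 3) and Hoxd10 (-0.088 to 0.36, below 0 without UVB replicate 3 or, at -0.05, Quiescent replicate 3). Apart from the shift of scale and the division by length, the cause was not tested. Of the values of 27 tested members under other settings, 1437 kept direction and side of the threshold, 56 lost a call, 21 gained one and 10 reversed.

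Same-numbered libraries had correlated deviations of 0.126, 0.065 and 0.231 between Active and Quiescent, 0.218, -0.171 and -0.116 between UVB and Quiescent and -0.001, 0.084 and -0.117 between UVB and Active, so the numbers were not taken to pair samples. With a replicate block the count stayed at 23 lower in Active, went from 15 to 14 lower and from 1 to 0 higher in UVB against Quiescent (Hoxd4, adjusted p = 0.0857, and Hoxb9, 0.06), and from 17 to 15 in UVB against Active (Hoxb8, 0.059, and Hoxc5, 0.052). The scalings of the related lists and markers were added after seeing the data. On the log2 scale of FPKM plus a pseudocount, changes of low genes are understated. Members under the limit of 3 fragments over a group cannot be compared at this depth.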

Other observations

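Some rows for noncoding genes inside the Hox clusters held a few fragments and were in no comparison, since none passed the filter on low counts. They were chosen with their values known. Hoxa11as, an antisense RNA at Hoxa11, had 6, 1 and 1 fragments in Quiescent, 0 in all Active libraries and 9, 2 and 3 in UVB. Hotair, a long noncoding RNA of cluster C, had 3 fragments in Quiescent replicate 1, 1 in Active replicate 3, and 4, 2 and 1 in the UVB libraries. The row for Mir10a, a microRNA gene of cluster B, had 2, 10 and 25 fragments in Quiescent and 0 in every other library, and that for Mir10b, of cluster D, had 1, 3 and 10 in Quiescent and 0 in every other library. Poly(A) libraries do not measure mature microRNAs, so these are fragments assigned to the gene's row.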
